A study of Rattus norvegicus with 36 samples.

Results

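The genes described here are the cystine transporter gene Slc7a11 and 9 genes of the NRF2 antioxidant response, namely Gclc, Gclm, Hmox1, Nqo1, Txnrd1, Srxn1, Gsr, Gpx2 and Nfe2l2. They were chosen by name, as the non-control probes whose gene name in the array files was one of these 10, and they make up 10 of 25597 gene names and 12 of 45598 probes. Slc7a11 and Txnrd1 had 2 probes each, and all 12 probes passed the filter on low signals. Lungs came from female Sprague Dawley rats, aged 13 weeks when they received DQ-12, a crystalline silica dust, in saline through the trachea at 10 mg per rat, or saline alone (vehicle). Groups of 6 vehicle and 6 DQ-12 rats were killed 1, 30 or 180 days later (D1, D30 and D180), and RNA of the accessory lobe of each rat was measured on its own Agilent single-color array, 36 arrays in all. All rats were anesthetized and instilled, 1 dose was tested, and the animals were of 1 sex. The question was how the exposed lungs differed from those of the vehicle rats at each time point.

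NRF2, encoded by Nfe2l2, is a transcription factor that KEAP1 marks for degradation in unstressed cells. Oxidants and electrophiles modify KEAP1, and NRF2 then pairs with a small MAF protein at antioxidant response elements of genes for glutathione synthesis, thioredoxin recycling and heme or quinone removal. Slc7a11 encodes the light chain xCT of the antiporter that takes up cystine, the oxidized form of the amino acid that limits glutathione synthesis, and the stress factor ATF4 is also known to activate it. In the lung, the pathway is known for its part in handling inhaled oxidants and particles, in epithelium and macrophages.

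The DNA letters behind the measurements are shown for 3 probes, because Slc7a11 and Txnrd1 were each measured by 2 probes that gave different values, and Hmox1 is the heme gene the results turn on. Each probe was 60 bases long and is written 5′ to 3′ as in the array files, with the stop codon at the end of the reading frame in capitals where the probe ends in one.
Slc7a11 second probe: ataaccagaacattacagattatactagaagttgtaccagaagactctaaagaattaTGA
Txnrd1 second probe: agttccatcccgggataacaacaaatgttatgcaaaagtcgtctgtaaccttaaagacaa
Hmox1 probe: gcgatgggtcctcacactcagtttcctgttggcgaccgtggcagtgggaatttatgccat
The Slc7a11 second probe lies at chr2:139248397-139248456 on the minus strand, in the build that the file headers name as rn4, and ends with the stop codon of a frame that is open over its whole length. The Slc7a11 main probe, the brighter of the pair, lies 6929 bases downstream at chr2:139241468-139241527, and no frame is open through it. The Txnrd1 probes are annotated to different transcripts and lie 9667 bases apart in the genome, the second one upstream at chr7:23065196-23065255. The Hmox1 probe lies at chr19:13969336-13969395 on the plus strand. The exon annotation of that build was not used here.

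The stretch of 250 bases before the transcription start is shown for 4 members. These are 3 that were higher at D180, and Gclm, which was too dim to measure and whose window holds a match to the core of the response element. The sequences are those of RefSeq on GRCr8, in which 8 of the 10 members had an entry (Hmox1 and Gsr had none). Capitals mark TGACNNNGC, the core of the antioxidant response element, or TGAGTCA, the AP-1 site, on either strand.
Slc7a11, chr2:136668265-136668514, minus strand: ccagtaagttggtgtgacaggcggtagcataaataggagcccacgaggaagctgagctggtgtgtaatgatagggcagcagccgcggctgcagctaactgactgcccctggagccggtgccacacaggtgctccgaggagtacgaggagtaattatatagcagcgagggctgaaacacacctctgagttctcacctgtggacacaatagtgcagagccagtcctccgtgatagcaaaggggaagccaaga
Srxn1, chr3:161064562-161064811, plus strand: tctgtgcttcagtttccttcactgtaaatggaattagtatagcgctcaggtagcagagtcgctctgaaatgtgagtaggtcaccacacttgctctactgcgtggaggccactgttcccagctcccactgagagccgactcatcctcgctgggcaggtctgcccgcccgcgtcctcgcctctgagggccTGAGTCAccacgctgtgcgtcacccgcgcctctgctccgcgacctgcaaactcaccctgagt
Txnrd1, chr7:22755905-22756154, minus strand: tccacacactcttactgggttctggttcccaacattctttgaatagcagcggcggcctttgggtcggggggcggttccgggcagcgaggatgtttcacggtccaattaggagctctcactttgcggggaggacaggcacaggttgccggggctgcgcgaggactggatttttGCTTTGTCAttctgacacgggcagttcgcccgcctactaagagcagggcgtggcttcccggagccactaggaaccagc
Gclm, chr2:213031885-213032134, plus strand: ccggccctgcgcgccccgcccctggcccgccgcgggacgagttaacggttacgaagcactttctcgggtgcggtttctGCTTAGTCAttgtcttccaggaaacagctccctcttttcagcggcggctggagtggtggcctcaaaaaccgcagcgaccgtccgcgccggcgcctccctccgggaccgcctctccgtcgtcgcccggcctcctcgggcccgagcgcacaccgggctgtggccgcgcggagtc
The core TGACNNNGC was found in the windows of Gclm, Gpx2 and 1 of the 2 starts of Txnrd1, thus in 3 of 8 members, and in 10.1% of 33469 windows of this length. TGAGTCA was found once, in the window of Srxn1, against 4.05% of all windows. The motifs can overlap, since TGACTCA is the other strand of TGAGTCA, but no window of a member held both. Neither was found in the window of Slc7a11, which says only that these letters are not in those 250 bases. A match is a description of the letters and was not measured as binding.

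Slc7a11 was higher in DQ-12 rats at all 3 time points. The difference was larger at D180 than at D1 in the model without a batch term. That call was lost with scan date or slide as a block, in fits that rest on 1 vehicle rat at D1. At D1, the log2 signal of its main probe had a median of 5.55 with vehicle (lowest rat 5.32, highest 6.08) and of 7.19 with DQ-12 (lowest 6.64, highest 8.22). The D30 medians were 5.38 with vehicle (lowest 4.77, highest 5.70) and 7.55 with DQ-12 (lowest 6.64, highest 7.82). By D180, the medians were 4.89 with vehicle (lowest 4.26, highest 5.90) and 8.31 with DQ-12 (lowest 7.82, highest 8.98). At each time point, all 6 DQ-12 rats were thus above all 6 vehicle rats (exact permutation p = 0.00216, 2-sided, the smallest that 6 against 6 allows). Such a separation was seen in 5.25% of all genes tested at D1, 1.81% at D30 and 3.85% at D180.

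The fold change (FC) of Slc7a11 was 3.04 at D1 (5.65 ± 0.35 against 7.26 ± 0.55, mean ± SD of the log2 signal, n = 6, log2 difference 1.60, SE 0.27, limma adjusted p = 7.86e-05). It was 4.14 at D30 (log2 difference 2.05, SE 0.27, limma adjusted p = 6.24e-06) and 9.54 at D180 (log2 difference 3.25, SE 0.27, limma adjusted p = 1.50e-10). The main probe was well above background in 5 of 6 vehicle rats at D180 and in every rat of the other groups. Of 23940 genes tested, 203 had a larger log2 difference at D1, 45 at D30 and 38 at D180. Slc7a11 is one of the genes that the study selected with these rats among others, so its rise is not independent evidence. In a piece of whole lobe, more cells that express a gene and more RNA per cell cannot be told apart.

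**Figure D1:**
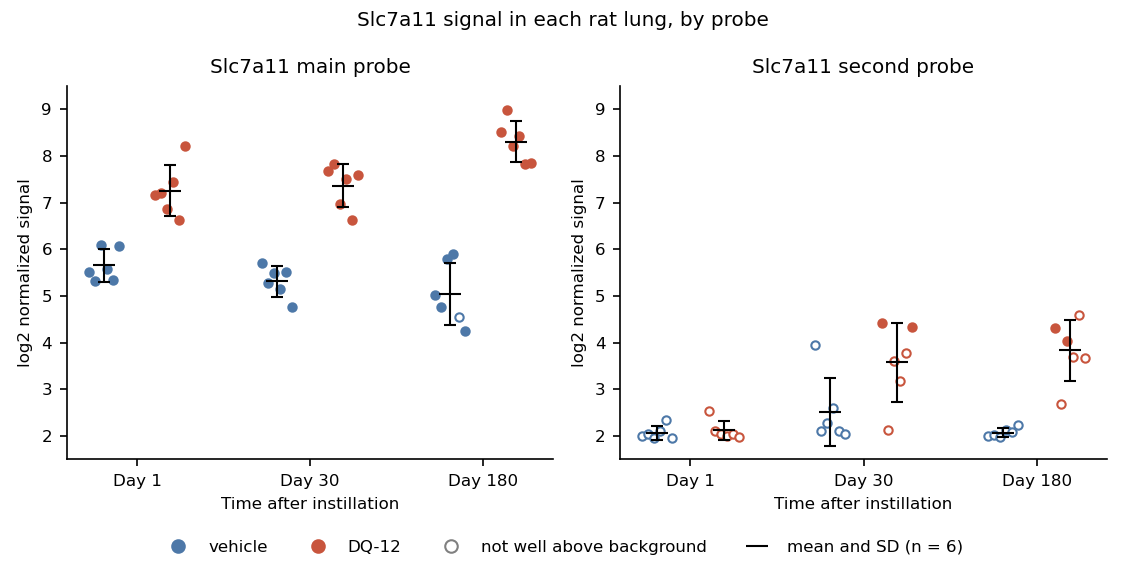
Log2 normalized signal (y axis) of the Slc7a11 main probe (left) and second probe (right) in each rat, by time after instillation (x axis). Points are rats, blue for vehicle and red for DQ-12, open where the probe was not well above background, and black bars give mean and SD (n = 6). On the main probe, all 6 DQ-12 rats lie above all vehicle rats at each time point, and on the second probe the vehicle rats are not well above background.

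In order of mean, the groups ran from vehicle D180 (5.05 ± 0.67), vehicle D30 (5.32 ± 0.33) and vehicle D1 (5.65 ± 0.35) to DQ-12 D1 (7.26 ± 0.55), DQ-12 D30 (7.37 ± 0.46) and DQ-12 D180 (8.30 ± 0.44). The 3 vehicle groups overlapped in their range, and so did the 3 DQ-12 groups. The log2 difference at D180 exceeded that at D1 by 1.65 (SE 0.38, limma adjusted p of the interaction = 0.00956). It was 1.84 with scan date as a block and 1.73 with slide as a block. The call was then lost, but at D1 these fits compare DQ-12 rats with 1 vehicle rat. Of all genes tested, 4.55% passed for this pair of time points without a block. The excess at D180 over D1 was not refitted with another background correction (normexp), which gave log2 differences of 0.87 at D1 and 1.82 at D180. Between D30 and D180 the gap was 1.20 (SE 0.38, limma adjusted p = 0.182, while 0.246% of all genes passed), and between D1 and D30 it was 0.45 (SE 0.38, limma adjusted p = 0.62, while 2.18% of all genes passed). Without a block, Slc7a11 was the only member with a difference between time points past the adjusted p. For Srxn1, the excess at D180 over D1 was 0.90 (SE 0.29, limma adjusted p = 0.0679), and for Hmox1 it was 0.81 (SE 0.26, limma adjusted p = 0.0706). Leaving out 1 rat brought the adjusted p of Srxn1 as low as 0.0263, without DQ-12 replicate 6 of D180, and that of Hmox1 as low as 0.0225, without DQ-12 replicate 3 of D180.

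The second Slc7a11 probe was dim. It was not well above background in any vehicle rat or in any DQ-12 rat at D1, and it was well above it in 2 of 6 DQ-12 rats at both D30 and D180. Its log2 signal was 2.06 ± 0.15 against 2.12 ± 0.21 at D1 (n = 6, limma adjusted p = 0.940). It was 2.52 ± 0.73 against 3.57 ± 0.85 at D30 (limma adjusted p = 0.0486) and 2.07 ± 0.10 against 3.83 ± 0.66 at D180 (limma adjusted p = 8.19e-05). At D180, all 6 DQ-12 rats were above all vehicle rats, whereas at D30 only 2 were. No fold is given, because the mean of the DQ-12 rats did not exceed the lowest signal that counts as well above background. The call at D30 was lost without any 1 of 10 of the 12 rats, all but vehicle replicate 1 and DQ-12 replicate 2, with adjusted p up to 0.162, and with 75th percentile scaling (limma adjusted p = 0.166) or scan date as a block (log2 difference 1.14, limma adjusted p = 0.203).

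Scanning days were unevenly spread at D1. Of the 6 vehicle arrays, 5 were scanned on other days than the DQ-12 arrays, and against the remaining vehicle rat Slc7a11 differed by 1.17 on the log2 scale. With scan date as a block, the difference at D1 was 1.17, and with slide as a block it was 0.89, and the call was lost. Both fits set DQ-12 rats against that 1 vehicle rat, so they cannot decide whether the call depends on scan date or slide. At D30, the difference was 1.32 in a scan date that held 4 vehicle rats and 1 DQ-12 rat, and 2.19 in one that held 2 and 5. At D180, it was 3.00 in a scan date with 3 rats of each group and 3.05 in one with 1 of each. Both blocked fits kept the adjusted p under the threshold at D30, and the fit with scan date did so at D180. With slide at D180, only 1 slide held both groups, with 1 rat of each, and these differed by 2.62. With the normexp background correction, the log2 difference was 0.87 at D1, 1.04 at D30 and 1.82 at D180.

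**Figure D2:**
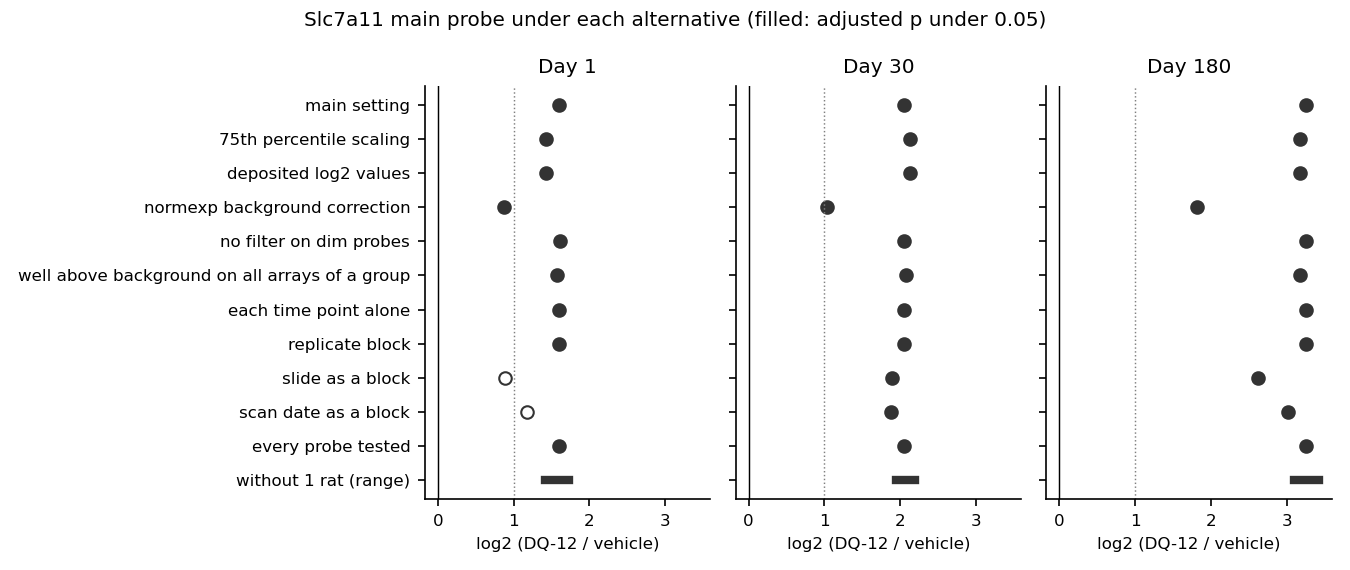
Log2 difference of the Slc7a11 main probe (x axis) at each time point under each way of processing (y axis). Filled points passed the adjusted p, the thick bar is the range over fits that leave out 1 rat of that time point, and the dotted line marks an FC of 2. The points sit above 0 throughout, and the open points at D1 are the fits with slide or scan date as a block. Those fits compare DQ-12 rats with 1 vehicle rat at D1. At D180, the fit with slide rests on 1 rat of each group.

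Among all 10 members, 6 rose at D1, 3 at D30 and 4 at D180 by the adjusted p, and none fell. Over all genes tested, 7.58% were higher and 8.62% lower at D1, 2.74% and 1.24% at D30, and 7.82% and 9.0% at D180. With an FC of at least 2 as well, 1 member passed at D1 and D30 (Slc7a11) and 3 at D180 (Slc7a11, Srxn1 and Hmox1), against 2.02%, 0.915% and 2.86% of all genes higher in the same order. The median log2 difference of the members was 0.48, 0.18 and 0.26, beside -0.01, -0.02 and -0.03 for all genes tested. At D1, 75th percentile scaling changed the split of all genes past both thresholds from 484 higher and 252 lower to 337 higher and 578 lower, whereas the count of members stayed at 1. With scan date or slide as a block, the calls at D1 were lost, but these fits compare DQ-12 rats with vehicle replicate 3 alone. The log2 differences were then 1.03 and 1.04 for Srxn1, 0.80 and 0.75 for Txnrd1, 0.69 and 0.72 for Hmox1, and 0.31 and 0.23 for Gpx2.

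**Figure D3:**
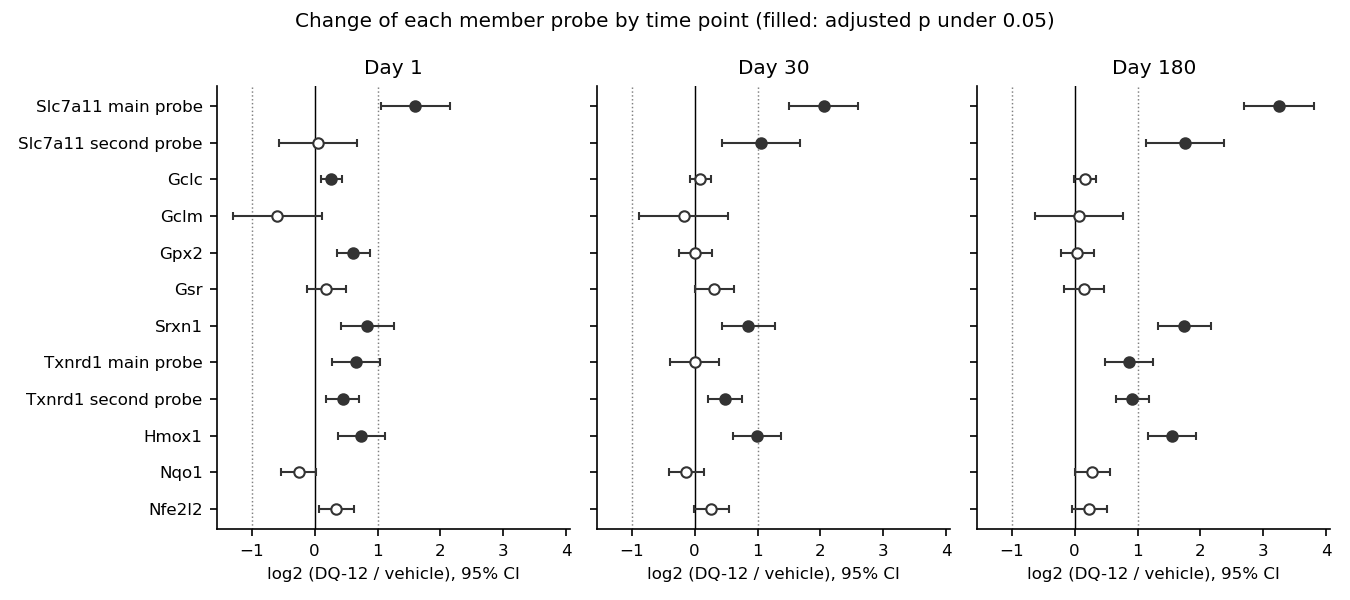
Log2 difference between DQ-12 and vehicle (x axis) with its 95% confidence interval for each member probe (y axis) at D1, D30 and D180 (n = 6 per group). Filled points passed the adjusted p, and dotted lines mark an FC of 2. Intervals of both Slc7a11 probes, Srxn1 and Hmox1 lie above 1 at D180. The values of Gclm and of the second Slc7a11 probe come from signals near background.

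Of the enzymes that make glutathione, Gclc and Gss rose at D1 and Gss again at D180. Gclc, the catalytic subunit of the ligase that joins glutamate and cysteine, rose at D1, from 10.2 ± 0.17 to 10.4 ± 0.10 on the log2 scale (FC 1.20, log2 difference 0.26, SE 0.08, limma adjusted p = 0.0264). The groups overlapped, with 1 of 6 DQ-12 rats above all vehicle rats. The call was lost without vehicle replicate 1 or 4 or DQ-12 replicate 2, with adjusted p up to 0.0806. The blocked fits gave -0.06 with scan date and -0.05 with slide, but at D1 they compare DQ-12 rats with vehicle replicate 3 alone. That rat had the highest Gclc signal of its group (10.5, next 10.2). At D30 and D180, its log2 differences were 0.09 (95% CI -0.08 to 0.26) and 0.16 (95% CI -0.0041 to 0.33), and did not pass. Gclm, the modifier subunit of the same ligase, was well above background on 1 array only, that of a vehicle rat at D1, and thus no fold is given. Gss, glutathione synthetase, which joins glycine in the final step, is no member and is named here after its values were seen. It was higher at D1 (log2 difference 0.52, limma adjusted p = 0.00177) and D180 (0.49, limma adjusted p = 0.00372), with all 6 DQ-12 rats above all vehicle rats at both, and its log2 difference of 0.04 at D30 did not pass. Slc3a2, the heavy chain that carries xCT to the membrane, did not pass at any time point (log2 difference -0.08 at D1, -0.70 at D30 and -0.17 at D180, adjusted p = 0.859, 0.0610 and 0.681). Leaving out 1 rat at D30 brought its adjusted p to between 0.00267 and 0.181.

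Srxn1, sulfiredoxin, which repairs overoxidized peroxiredoxins, had the next largest FC at D180 after Slc7a11. Its median log2 signal at D1 was 8.67 with vehicle (lowest 8.51, highest 9.14) and 9.57 with DQ-12 (lowest 9.47, highest 9.74). The D30 medians were 8.92 with vehicle (lowest 8.40, highest 10.0) and 9.98 with DQ-12 (lowest 9.60, highest 10.3), and those at D180 were 9.20 (lowest 8.87, highest 9.40) and 11.1 (lowest 10.2, highest 11.4). The groups did not overlap at D1 and D180, and at D30 the vehicle rats spread over the range of the DQ-12 rats, with 3 of 6 DQ-12 rats above all of them. The FC was 1.79 at D1 (SE of the log2 difference 0.21, limma adjusted p = 0.0045), 1.81 at D30 (adjusted p = 0.0122) and 3.35 at D180 (adjusted p = 1.69e-07). The call at D30 was lost without vehicle replicate 6 (adjusted p = 0.0508), when D30 was fitted alone (adjusted p = 0.136), and with scan date (adjusted p = 0.210) or slide (adjusted p = 0.163) as a block.

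Txnrd1, cytosolic thioredoxin reductase, rose at D1 and D180 on both probes, while at D30 only the second probe passed. The difference between the probes was not tested. At D1, the main probe had a median log2 signal of 8.53 with vehicle (lowest 8.37, highest 8.74) and of 9.24 with DQ-12 (lowest 8.92, highest 9.42), with no overlap (FC 1.58, limma adjusted p = 0.0140). The D180 medians were 8.58 with vehicle (lowest 7.51, highest 8.90) and 9.25 with DQ-12 (lowest 8.75, highest 9.74), and 5 of 6 DQ-12 rats were above all vehicle rats (FC 1.82, limma adjusted p = 0.00111). At D30, the log2 difference was -0.0022 on the main probe (95% CI -0.39 to 0.38, limma adjusted p = 1.00) and 0.48 on the second probe (95% CI 0.22 to 0.75, limma adjusted p = 0.0340). On the second probe, 5 of 6 DQ-12 rats were above all vehicle rats at D1 and D30, and 6 of 6 at D180 (FC 1.36, 1.40 and 1.89). The call of the second probe at D30 was lost without any 1 of 7 rats (vehicle replicates 1, 4, 5 and 6 and DQ-12 replicates 1, 2 and 4), with adjusted p up to 0.120. Its call at D1 was lost without vehicle replicate 1 or 4 or DQ-12 replicate 4 (adjusted p up to 0.0549) and with 75th percentile scaling (adjusted p = 0.0774). Scan dates at D30 were uneven, with 4 vehicle rats and 1 DQ-12 rat in one and 2 and 5 in another. Within them, the main probe differed by 0.29 and 0.21, and the second probe by 0.29 and 0.57. When scan date was a block, the second probe did not pass at D30 (log2 difference 0.47, limma adjusted p = 0.163). Its log2 difference at D1 was then 0.13, in a fit that rests on 1 vehicle rat there.

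Hmox1, heme oxygenase 1, which breaks down heme and is also abundant in macrophages that clear red cells, rose at all 3 time points. At D1, its median log2 signal was 10.6 with vehicle (lowest 10.2, highest 11.6) and 11.4 with DQ-12 (lowest 11.2, highest 12.01). The D30 medians were 9.88 with vehicle (lowest 9.53, highest 10.2) and 10.7 with DQ-12 (lowest 10.6, highest 11.2), and those at D180 were 9.84 (lowest 9.62, highest 10.1) and 11.5 (lowest 10.7, highest 11.7). All 6 DQ-12 rats were above all vehicle rats at D30 and D180, and 1 of 6 at D1. The FC was 1.67 at D1 (SE of the log2 difference 0.19, limma adjusted p = 0.00525) and 2.93 at D180 (adjusted p = 2.05e-07). At D30, it was 1.99 (adjusted p = 0.000834), just under the threshold of 2, which it passed with 75th percentile scaling, with the deposited values and with either block. With slide as a block, the calls at D180 were lost for Hmox1 (log2 difference 1.15, adjusted p = 0.205) and for Txnrd1 (0.73, adjusted p = 0.317), in a fit in which 1 slide held both groups, with 1 rat of each. Nqo1, a quinone reductase used as a readout of NRF2 activity in other settings, did not pass at any time point. Its log2 difference was -0.26 at D1 (95% CI -0.53 to 0.02), -0.13 at D30 (95% CI -0.40 to 0.14) and 0.28 at D180 (95% CI 0.01 to 0.56, limma adjusted p = 0.160). At D1, 4 of 6 DQ-12 rats were below all vehicle rats, and at D180, 5 of 6 were above them.

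Of the enzymes that use or recycle glutathione, Gpx2, a glutathione peroxidase of epithelia, rose at D1 alone by the adjusted p. Its median log2 signal at D1 was 14.5 with vehicle (lowest 14.3, highest 14.9) and 15.3 with DQ-12 (lowest 14.7, highest 15.4), with 5 of 6 above all vehicle rats (FC 1.53, SE of the log2 difference 0.13, limma adjusted p = 0.000929). At D30 and D180, the log2 difference was 0.01 (95% CI -0.25 to 0.27) and 0.04 (95% CI -0.22 to 0.30). The interaction missed the threshold (D180 minus D1, -0.57, SE 0.18, limma adjusted p = 0.0625, and 0.0213 without DQ-12 replicate 2 of D1), so the effect is not shown to differ between the time points. Gsr, glutathione reductase, did not pass at any time point (log2 difference 0.18, 0.31 and 0.15 at D1, D30 and D180, adjusted p = 0.464, 0.317 and 0.595). Nfe2l2 itself did not pass either (log2 difference 0.34, 0.26 and 0.23, adjusted p = 0.0841, 0.361 and 0.282, and 0.0335 at D1 without vehicle replicate 3). It passed at D1 when that time point was fitted alone (adjusted p = 0.0425) and at D180 with scan date as a block (log2 difference 0.30, adjusted p = 0.0226). At D1, its highest DQ-12 rat was at 12.7 and its highest vehicle rat at 12.5.

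**Figure D4:**
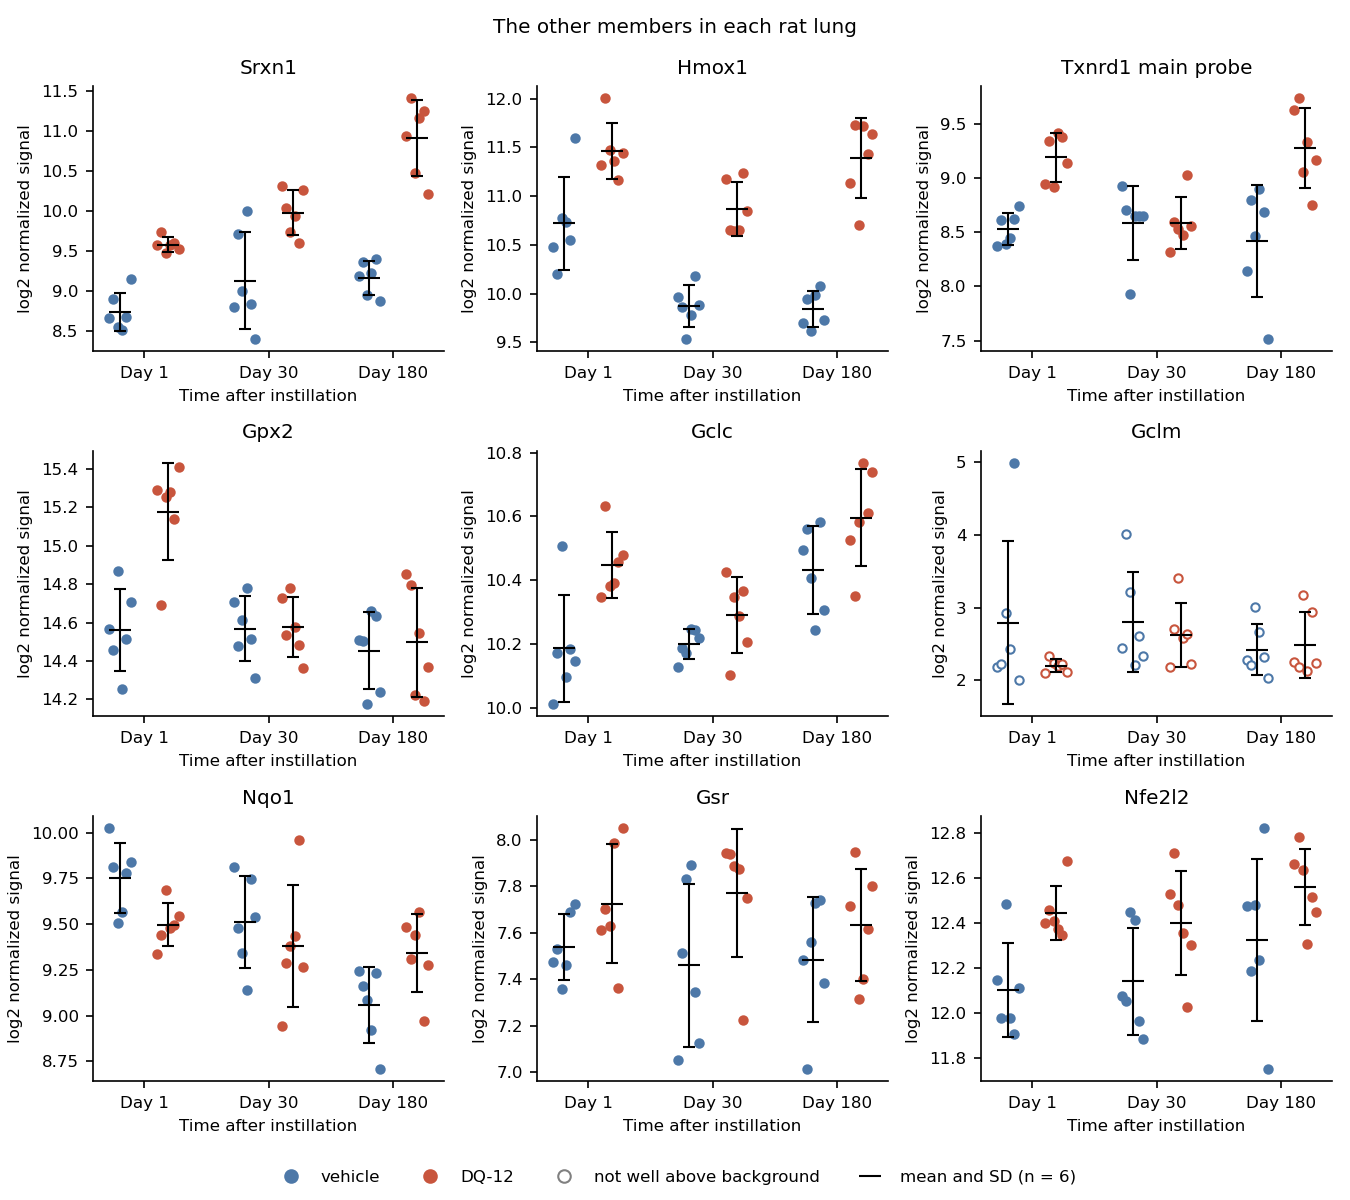
Log2 normalized signal (y axis, on a scale of its own for each gene) of the other 9 members in each rat by time after instillation (x axis). Points are rats, blue for vehicle and red for DQ-12, open where not well above background, and black bars give mean and SD (n = 6). The groups separate for Srxn1 at D1 and D180, for Hmox1 at D30 and D180, and for Txnrd1 at D1, while Nqo1, Gsr and Nfe2l2 overlap at every time point.

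Beyond the members, 91 other genes were listed for the same pathway, of which 89 were tested. By the adjusted p, 13 rose and 9 fell at D1, 5 rose and 7 fell at D30, and 18 rose and 11 fell at D180. Beside them stand 7.58% of all genes higher and 8.62% lower at D1, 2.74% and 1.24% at D30, and 7.82% and 9.0% at D180. Over all genes, 3877 passed the adjusted p at D1 without a block. Fewer passed with scan date or slide as a block, in fits that compare DQ-12 rats with 1 vehicle rat there. Past both thresholds, 1 was higher and 1 lower at D1, 2 were lower at D30 and 4 were higher at D180, beside 2.02%, 0.915% and 2.86% of all genes higher and 1.05%, 0.138% and 0.773% lower past both thresholds at D1, D30 and D180. The median log2 difference of the listed genes was 0.04, -0.03 and 0.02, near that of all genes.

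The thioredoxin and peroxiredoxin list had 7 of 14 genes higher and 1 lower at D1, 2 higher at D30 and 4 higher at D180, where 7.58%, 2.74% and 7.82% of all genes were higher. Prdx5, a mitochondrial and peroxisomal peroxiredoxin, was higher at all 3 time points, with log2 differences of 0.43, 0.66 and 1.26 (FC 2.39 at D180, limma adjusted p = 2.41e-09). Glrx, glutaredoxin, was higher by 0.41, 0.52 and 1.03 (FC 2.04 at D180, limma adjusted p = 7.05e-10). Txnip, an inhibitor of thioredoxin, fell at D1 (log2 difference -1.11, SE 0.25, limma adjusted p = 0.00192). Txnrd3, a testis-enriched thioredoxin reductase, was past both thresholds at D1 with a log2 difference of 2.54, but 1 DQ-12 rat stood at 13.7 while the other 5 stood between 6.00 and 6.51. Without that rat (replicate 1), the log2 difference was 1.28 (FC 2.42, limma adjusted p = 0.00178).

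The NADPH supply list, named for the cofactor that Gsr, Txnrd1 and Nqo1 consume, had 2 of 7 genes higher and 1 lower at D1, 2 higher at D30 and 6 higher at D180. Over all genes tested, 7.58% were higher and 8.62% lower at D1, 2.74% higher at D30 and 7.82% higher at D180. Named here after their values were seen, genes of this list that were higher at D180 included Idh1, an isocitrate dehydrogenase (log2 difference 0.80), Me1, the cytosolic malic enzyme (0.55), and Tkt, transketolase (0.43). In the list of glutathione use, 6 of 20 genes were lower and 2 higher at D180. In that of quinone, heme and carbonyl handling, 3 of 24 were higher and 2 lower, where 7.82% of all genes were higher and 9.0% lower. Akr1b8, an aldo-keto reductase, was the gene of that list past both thresholds (log2 difference 1.86 at D180, SE 0.39, limma adjusted p = 0.000788). Vehicle rats ran from 9.36 to 11.3 there and DQ-12 rats from 11.2 to 12.7, so the groups overlapped.

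Sod2, the mitochondrial superoxide dismutase, was higher by 0.93 at D30 (limma adjusted p = 0.00199) and by 1.07 at D180 (FC 2.10, limma adjusted p = 6.55e-05), with a log2 difference of 0.48 at D1 that did not pass (adjusted p = 0.0735). Cat, catalase, did not pass at any time point (log2 difference 0.34, 0.19 and 0.13). Of the glutathione and cystine list, Cth, which makes cysteine from cystathionine, fell at D30 (log2 difference -1.08, SE 0.22, limma adjusted p = 0.00202) and D180 (-0.80, limma adjusted p = 0.0074). Keap1, the NRF2 inhibitor, and Bach1, a repressor of Hmox1, did not pass at any time point (log2 difference of Keap1 0.17, -0.06 and -0.06, and of Bach1 0.26, 0.22 and 0.30, with -0.41, -0.04 and 0.24 on its other probe). Mafg, a partner of NRF2, fell at D1 (log2 difference -0.45, limma adjusted p = 0.0229, up to 0.0948 without 1 rat) and did not pass later. Its other probe had a log2 difference of 0.12 at D1 (limma adjusted p = 0.663). Nfe2l3, a relative of NRF2, fell at D30 (log2 difference -1.08, limma adjusted p = 0.0313, up to 0.109 without 1 rat), whereas its other probe had -0.18 (limma adjusted p = 0.881).

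**Figure D5:**
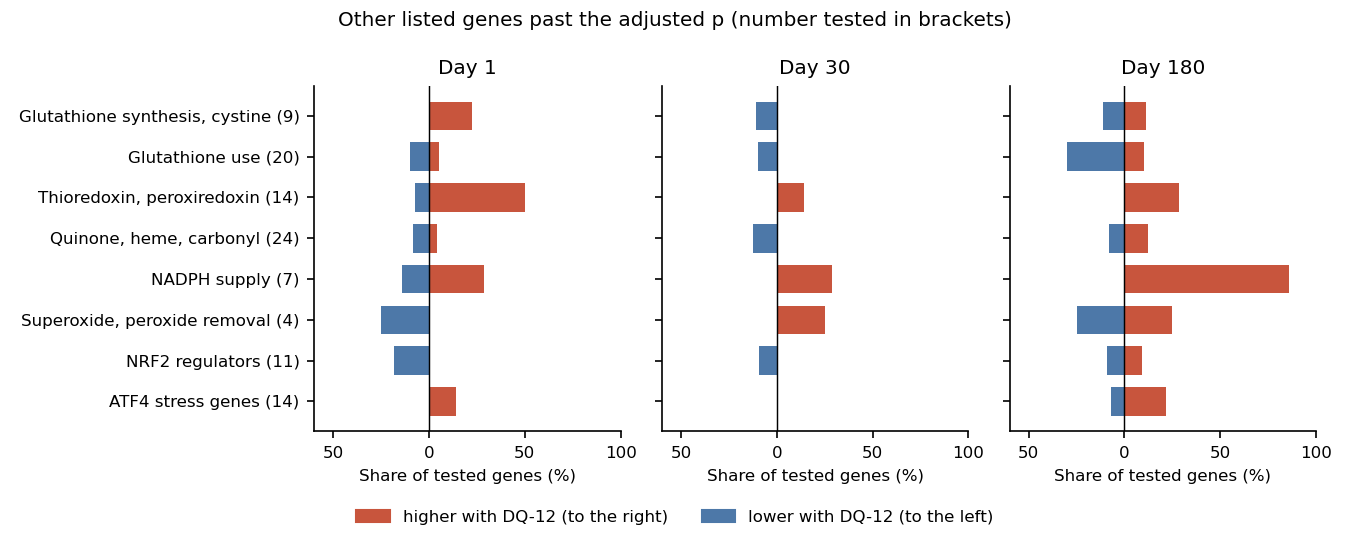
Share of tested genes of each list (members left out, number tested in brackets on the y axis) that passed the adjusted p, in percent (x axis), higher to the right in red and lower to the left in blue, at each time point. NADPH supply has 6 of 7 genes higher at D180, and thioredoxin and peroxiredoxin 7 of 14 at D1, where 7.82% and 7.58% of all genes were higher.

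Genes driven by ATF4, which also acts on Slc7a11, were counted in a list of their own. Of 14 tested, 2 rose at D1, none passed at D30, and 3 rose and 1 fell at D180. Over all genes tested, 7.58% were higher at D1, 2.74% higher and 1.24% lower at D30, and 7.82% higher and 9.0% lower at D180. Phgdh, which opens serine synthesis, rose at D1 (log2 difference 0.51, limma adjusted p = 0.0165, up to 0.0531 without 1 rat) and at D180 (log2 difference 1.01, limma adjusted p = 7.26e-06). At D180, all 6 DQ-12 rats (10.3 to 10.6) were above all vehicle rats (9.11 to 9.70). Its other probe had 0.52 at D1 (limma adjusted p = 0.231), -0.19 at D30 (limma adjusted p = 0.866) and 1.26 at D180 (limma adjusted p = 0.00139).

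Markers of other cell types moved in the same rats. Among all genes tested, 7.58% were higher and 8.62% lower at D1, and 2.74% and 1.24% at D30. At D180, 7.82% were higher and 9.0% lower. Of 11 macrophage markers tested, 4 were higher and 1 lower at D1, 5 higher at D30, and 5 higher and 2 lower at D180. All 11 were well above background on every array. Lyz2 alone stood at about 18.2 in vehicle rats, at the top of the scale, so the sum is given over the other 10, a choice made after the data were seen. With Lyz2, the summed log2 signal at D30 overlapped (17.98 to 18.24 in vehicle and 18.07 to 18.27 in DQ-12 rats). Without Lyz2, the sum was 13.1 to 13.6 in vehicle and 13.4 to 13.7 in DQ-12 rats at D1 on the log2 scale. It was 12.8 to 13.1 and 13.7 to 14.0 at D30, and 13.3 to 13.7 and 14.4 to 15.0 at D180, without overlap at D30 and D180. Bright genes weigh most in such a sum. The median log2 difference of the 11 markers was only 0.14, 0.15 and 0.13 at D1, D30 and D180. Of 12 neutrophil markers, of which 1 was well above background on no array, 2, 4 and 7 were higher, and their summed log2 signal ran from 14.3 to 14.7 in vehicle rats and from 15.9 to 16.3 in DQ-12 rats at D180. All 8 alveolar type 1 markers and 7 of 8 endothelial markers were lower at D180. Their part in the changes of the members was not tested. The defining markers of the labelled tissue were present, with all 10 alveolar type 2 markers and all 8 type 1 markers well above background on every array.

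The genes whose signal followed the main Slc7a11 probe most closely over the 36 arrays were Rhbdl2 (Pearson r = 0.943), Ccl2 (0.933), Slc26a4 (0.932), Mmp12 (0.929) and LOC102551003 (0.927), among 15851 genes compared. The arrays share the division into vehicle and DQ-12 rats, and these 5 genes differ between the groups themselves, for example Ccl2, a monocyte chemokine, by 2.56, 2.80 and 4.54 on the log2 scale at D1, D30 and D180, and Mmp12, the macrophage elastase, by 3.36, 3.61 and 4.91. After the mean of each group was subtracted, the closest genes were Wapl (r = 0.757), Rell1 (0.746), RGD1562114 (0.726), Dnajc22 (0.725) and Mrpl37 (0.716), so none of the first 5 was among them. Among the members, r with Slc7a11 over the 36 arrays was 0.792 for Srxn1, 0.780 for Hmox1, 0.633 for Txnrd1 and 0.599 for Nfe2l2. With group means subtracted, it was highest for Nfe2l2 (0.458), Gsr (0.423) and Gpx2 (0.383), and it was 0.222 for Srxn1, 0.141 for Hmox1 and 0.258 for Txnrd1. Scan date and slide were not adjusted for in these values, which are descriptions with no test.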

How the data were processed

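Each array file, made by the authors with Agilent Feature Extraction 12.0.1.1, holds spot intensities, of which the deposited background-corrected intensity was used here. The deposited log2 values (75th percentile scaling, probe medians at 0) served as an alternative. Outlier spots were left out, the spots of a probe averaged on the log2 scale, a probe kept if 6 or more arrays exceeded the 95th percentile of their negative control spots, and the kept probes quantile normalized. The probe with the highest mean stood for its gene, leaving 23940 genes. Groups came from the labels, and 0 value columns were left unmapped. A model of 6 group means was fitted to all 36 arrays (limma 3.58.1, R 4.3.3), with Benjamini–Hochberg adjustment over all genes at each time point and thresholds of FC 2 and adjusted p 0.05. Second probes were adjusted over all named probes. Exact permutation tests were 2-sided, and the model was tested on simulated data. Those data held independent noise without slide or scan date effects or a background floor, so that test does not bear on these limits. The number of arrays limits the precision. Members and lists were chosen with earlier results of these data known. Named were all members, Slc3a2, Keap1, Bach1, Mafg, Sod2, Cat, listed genes past both thresholds, and the 5 genes most like Slc7a11 among those well above background on at least 30 arrays. Alternatives covered scaling, background correction, filter, probe summary, model, replicate number, slide, scan date and leaving out each rat. The study's batch correction names no variable, so no batch term entered the model. The arrays span 19 slides and 11 scan dates, and 51.4 to 75.5% of probes were well above background per array. Figures used Python 3.11.15 and matplotlib 3.10.9.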

Additional observations from a re-analysis of the deposited data

Results flagged for a closer look

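The log2 difference of Slc7a11 between DQ-12 and vehicle was larger at D180 than at D1 by 1.65 on the main probe (limma adjusted p = 0.00956). When scan date was a block it was larger by 1.84 and with slide by 1.73. The call was lost in both fits, which rest on 1 vehicle rat at D1. On the second probe, the fitted difference was 1.70 (limma adjusted p = 0.0210), but the probe was not well above background in any rat at D1 or any vehicle rat at D180, so this value measures no size and adds nothing to that of the main probe.

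In 9 of 72 combinations of probe and group, 1 rat lay apart from the other 5 by Dixon's test, which flags about 1 in 20 groups by chance. On the second Slc7a11 probe, these were the highest vehicle rat at D1 (2.35, next 2.10), the highest DQ-12 rat at D1 (2.53, next 2.10) and the highest vehicle rat at D30 (3.95, next 2.59). The others were the highest vehicle rat at D1 for Gclc (10.5, next 10.2) and for Gclm (4.99, next 2.93), the highest DQ-12 rat at D1 for Hmox1 (12.01, next 11.5) and for Nfe2l2 (12.7, next 12.5), the lowest vehicle rat at D30 for Txnrd1 (7.93, next 8.65), and the lowest DQ-12 rat at D30 for Gsr (7.23, next 7.75).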

How the results depend on the processing

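Under the alternatives that kept all rats, 257 values of single genes and 92 of the main results stayed on their side of the threshold with the same direction. Of the single genes, 22 values turned sign, 19 lost their call and 2 gained one, and of the main results 12 counts moved and 4 values lost their call. When 1 rat was left out, 458 and 235 stayed, 23 single-gene values turned sign, 24 lost and 11 gained a call, and 17 counts moved. At D1, members past both thresholds went from 1 to 0 with normexp. With scan date or slide as a block, the calls at D1 were lost, in fits that rest on 1 vehicle rat there, replicate 3. Slc7a11 at D1 then was 1.17 (scan date) and 0.89 (slide). Its difference D180 minus D1 was 1.84 and 1.73, and its call was lost in the same fits. At D30, 2 members passed both thresholds with 75th percentile scaling, deposited values or either block, and at D180, 2 passed the adjusted p with slide. The cause was not tested.

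At D1, values with either block rest on 1 vehicle rat, replicate 3, and at D180 values with slide rest on 1 rat of each group. The sign turned for these log2 differences, none past the threshold under that alternative. With slide, they were -0.050 for Gclc and -0.083 for Nfe2l2 at D1, 0.11 for Nqo1, 0.26 for Txnrd1, -0.053 for Gsr and -0.072 for Gpx2 at D30, -0.41 for Gclm and -0.013 for Gsr at D180, and 0.33 for Gclc and -0.028 for Txnrd1 as D180 minus D1. With scan date, they were -0.057 for Gclc and -0.042 for Nfe2l2 at D1, 0.13 for Nqo1, 0.24 for Txnrd1 and -0.071 for Gpx2 at D30, and 0.15 for Gclc and -0.082 for Txnrd1 as D180 minus D1. Txnrd1 at D30 was 0.011 with 75th percentile scaling and with deposited values and 0.00033 with normexp, Gclm at D180 was -0.022 with normexp, and the second Slc7a11 probe at D1 was -0.13 with 75th percentile scaling.

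Leaving out 1 rat gave 1 to 2 members past both thresholds at D30, 0 to 1 members differing between D1 and D30, and 1 to 3 between D1 and D180. It gave log2 differences of -0.13 to 0.067 for Txnrd1, -0.33 to 0.065 for Gclm and -0.041 to 0.053 for Gpx2 at D30, -0.069 to 0.18 for Gclm and -0.029 to 0.10 for Gpx2 at D180, and -0.029 to 0.11 for the second Slc7a11 probe at D1. Slc7a11 kept its call without each rat at D30 and D180. It also kept it under each alternative at D30, and under each one other than slide at D180. The slide fit at D180 rests on 1 rat of each group and is not counted. Over the alternatives, the log2 difference ran from 1.04 to 2.13 at D30 and from 1.82 to 3.26 at D180.

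The replicate numbers were not taken as pairs, since same-numbered rats correlated at -0.13 to 0.22 (18 pairs, 6 over 0.1, 5 highest with their own number). With the replicate number as a block, Slc7a11 differed by 1.60, 2.05 and 3.25, no call of a member changed, and all genes past both thresholds numbered 742, 258 and 886 in place of 736, 252 and 869. With normexp, these were 214, 102 and 326. With slide, the number at D30 was 173, and with scan date it was 176 at D30 and 874 at D180. Numbers at D1 with either block, and at D180 with slide, rest on 1 vehicle rat and are not given. Dim signals limit Gclm and the second Slc7a11 probe, 5 of 6 vehicle arrays at D1 share no scan date with DQ-12 arrays, and 6 rats per group limit small changes.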
